A study of Homo sapiens with 4 samples.

Results

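The 3658 untreated HCT116 cells of a single-cell experiment were ordered by how much of their RNA came from 10 genes of late G2 and mitosis, and the 915 cells with the highest score were compared with the 915 with the lowest. The cells were thus selected on measured transcript levels. HCT116 is an established human colorectal cancer line. These cells were grown with DMSO, the solvent control, at passage 5 to 10, and they are 3658 of 15289 cells in the 4 libraries of the experiment. The other 3 libraries held HCT116 cells given 500 nM DAC for 72 h and 500 nM SB939 for 18 h, with the medium changed every 24 h (called DAC+SB), and H1299 cells, a lung cancer line, given DMSO or the same inhibitors of DNA methyltransferases and histone deacetylases. All were made from polyadenylated RNA with the 10x Genomics 5′ chemistry, which reads transcripts from their 5′ end, and each was 1 library, so that no replicate was available.

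A dividing cell copies its DNA in S phase, prepares in G2 and separates the chromosomes in mitosis. Cyclin B with the kinase CDK1 drives entry into mitosis, kinesins and other motors build the spindle, and the chromosomal passenger complex corrects how chromosomes attach to it. The anaphase-promoting complex then marks cyclin B and securin for destruction, and the cell divides at cytokinesis. Genes of this programme are transcribed late in the cycle, largely under the MuvB complex with B-MYB and FOXM1, while genes of DNA replication are transcribed earlier, under E2F factors.

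The score of a cell was the sum of its counts of TOP2A, MKI67, CDC20, CCNB2, AURKA, UBE2C, TPX2, CENPF, HMMR and NUSAP1, divided by all gene counts of the cell. Cells were put in 4 groups by score, called low-score (915 cells), lower-middle (914), upper-middle (914) and high-score (915) cells. The score formed one range with no gap at the limits between groups, apart from 1 cell at 10853 on the scale below, so the groups are ranges of a score and not cell types. The limit of the high-score group lay at 1999.61 score counts per 1000000 gene counts, with the nearest cells at 1999.73 inside and 1999.26 outside. The limit of the low-score group lay at 769.737, with the nearest cells at 769.601 inside and 770.146 outside. Within 10% of these limits were 367 and 277 cells. The median score was 2606 on this scale in high-score cells and 507 in low-score cells, and 32 low-score cells had a score of 0.

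The score genes chose the cells, so their values describe the choice and were not compared further. MKI67, which coats mitotic chromosomes, gave 21.2% of all score counts and the kinetochore protein CENPF gave 20.0%. CENPF stood at 596 and 73.5 CPM (counts per 1000000 of the summed counts of a group) in high-score and low-score cells, and AURKA, the kinase of the spindle poles, at 154 and 11.8 CPM. The log2 ratios of the 10 genes lay between 1.82 (CCNB2) and 3.71 (AURKA). In all further CPM values and their ratios the 10 genes were left out of the readout and of the denominator. Counts and gene names per cell, the mitochondrial share per cell and the thinning of cells still held them.

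The label of the cells as mitotic was checked on 8 genes outside the score. CCNB1, PLK1, CDK1, BIRC5, AURKB, KIF20A, DLGAP5 and CENPE had log2 ratios between 1.22 and 3.26 and all were at least 2-fold higher in high-score cells. Transcripts of this kind are made in G2 as well as in mitosis, so the cells are called by their score here and not by a stage. The epithelial genes KRT18, KRT8, KRT19 and EPCAM were present in both groups (234 and 228 CPM for KRT18), while CEACAM5, CEACAM6, TFF3 and CDX1 were at 0 and CDH1 had 12 against 11 counts under its own name. Of 16 markers of blood, vessel, stroma, liver and lung cells, PTPRC, CD3E, HBB and DCN were at 0 in all 4 groups and 7 more had fewer than 10 counts in all. The sum of the 16 was 63.1, 52.7, 54.2 and 59.0 CPM from low-score to high-score cells. VIM, with 740, 679, 704 and 824 counts, and COL1A1, with 119, 103, 135 and 153, gave most of it.

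The groups differed in depth and composition. The median count per cell was 18113 in high-score and 14728 in low-score cells, and 16871 and 15871.5 in upper-middle and lower-middle cells. The median number of gene names detected was 4033 in high-score and 3304 in low-score cells. The median mitochondrial share was 15.4% and 16.1%, and 82 and 104 cells exceeded 25%. Ratios were therefore taken between sums scaled to the total of each group (17176076 and 14042096 counts), and values per cell after thinning each cell to 10100 counts. With groups drawn within each of 10 ranges of depth, 210 genes were higher and 28 lower, of which 194 and 19 were among the 220 and 20 described below. Cell barcodes shared with the other libraries numbered 22 with H1299 DMSO, 18 with H1299 DAC+SB and 20 with HCT116 DAC+SB.

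A gene was compared, or tested in the words used here, where the group with its higher level had 100 counts or more, which 9704 genes met. In high-score cells 220 of them were at least 2-fold higher, which is 2.27% of the genes tested, and 20 were at least 2-fold lower, which is 0.206%. The ratio reached 4 for 49 of the higher genes and 8 for 7. The median log2 ratio over all genes tested was 0.14. The 8 lists of mitosis genes held 140 genes, of which 139 were tested, 80 were higher and none was lower, with a median log2 ratio of 1.24. The lists were chosen with earlier results of these data known. Counts of called list members, here and below, therefore describe the lists and are no independent support. They stand beside the 2.27% and 0.206% of all genes tested. Because both groups are cells of 1 library, no p-value was computed, and intervals in brackets are exact 95% intervals that cover counting error only.

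**Figure D1:**
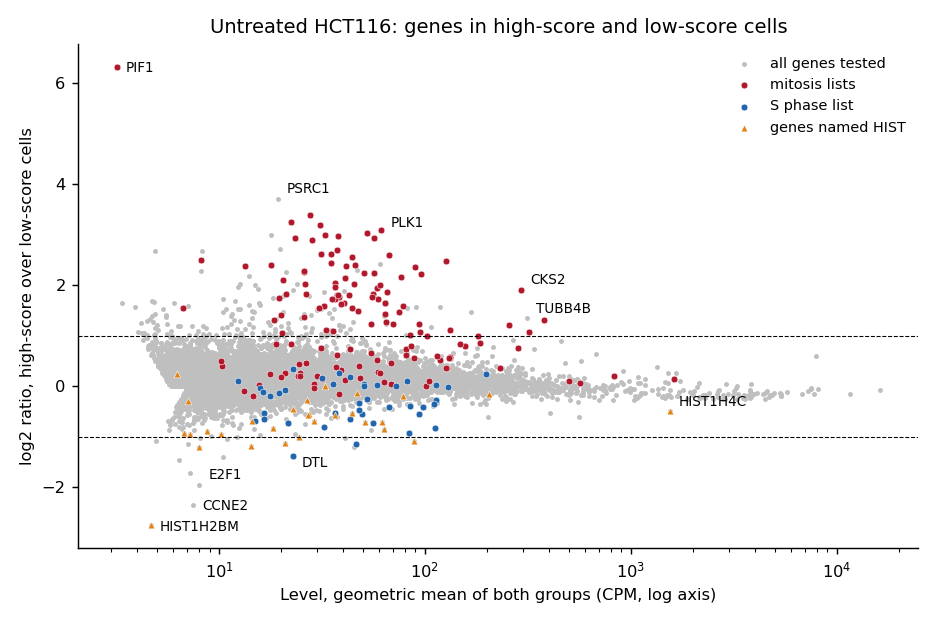
Level of each of the 9704 genes (horizontal, geometric mean of the CPM of high-score and low-score cells, log axis) against its log2 ratio of high-score over low-score cells (vertical), with dashed lines at a ratio of 2 and its inverse. Genes of the mitosis lists (red) reach up to 6.32, while the S phase list (blue) and genes named HIST (triangles) lie mostly below 0.

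Promoter sequences are shown for 6 genes higher in high-score cells and 2 lower in them, to show where short elements known from cell cycle promoters lie. These elements were searched on both strands of the RefSeq promoter windows (GRCh38.p14). They were CCAAT, the element read by NF-Y, TTTGAA and TTCGAA, forms of the cell cycle homology region to which MuvB complexes bind, and TTTGGCGC, an E2F element. Adjacent matches can share end letters. The lines run 5′ to 3′ on the strand of the gene, from 100 bases before the RefSeq start to 50 after it, and capitals mark matches of these letters or of their reverse complement. CKS2 (chr9:89311095-89311244, plus strand), UBE2S (chr19:55407739-55407888, minus), ARL6IP1 (chr16:18801321-18801470, minus), KPNA2 (chr17:68035635-68035784, plus) and CCNB1 (chr5:69167050-69167199, plus) have the most counts among the higher named genes of the mitosis lists with a promoter found, and PIF1 (chr15:64825598-64825747, minus), E2F1 (chr20:33686336-33686485, minus) and CDC6 (chr17:40287779-40287928, plus) were chosen after their values were seen.
CKS2: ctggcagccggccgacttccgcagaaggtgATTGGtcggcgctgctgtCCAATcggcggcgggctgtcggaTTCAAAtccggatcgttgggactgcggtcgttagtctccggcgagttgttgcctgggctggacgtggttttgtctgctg
UBE2S: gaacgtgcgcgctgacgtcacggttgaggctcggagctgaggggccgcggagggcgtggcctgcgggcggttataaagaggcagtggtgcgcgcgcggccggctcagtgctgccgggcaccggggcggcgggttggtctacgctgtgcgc
ARL6IP1: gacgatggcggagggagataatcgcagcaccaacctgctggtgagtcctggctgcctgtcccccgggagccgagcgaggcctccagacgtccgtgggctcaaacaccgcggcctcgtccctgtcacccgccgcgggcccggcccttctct
KPNA2: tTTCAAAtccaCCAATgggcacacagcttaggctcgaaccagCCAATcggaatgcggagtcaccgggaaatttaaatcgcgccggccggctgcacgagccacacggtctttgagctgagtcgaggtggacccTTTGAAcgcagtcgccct
CCNB1: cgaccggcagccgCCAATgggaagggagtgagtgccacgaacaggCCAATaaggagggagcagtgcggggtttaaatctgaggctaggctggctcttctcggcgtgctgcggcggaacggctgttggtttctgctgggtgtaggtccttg
PIF1: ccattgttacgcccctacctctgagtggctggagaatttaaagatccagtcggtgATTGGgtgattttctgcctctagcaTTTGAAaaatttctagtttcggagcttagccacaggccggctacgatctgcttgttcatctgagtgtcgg
E2F1: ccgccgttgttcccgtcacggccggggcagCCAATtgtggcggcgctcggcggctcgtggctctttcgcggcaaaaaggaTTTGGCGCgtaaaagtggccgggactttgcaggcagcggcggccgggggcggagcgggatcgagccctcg
CDC6: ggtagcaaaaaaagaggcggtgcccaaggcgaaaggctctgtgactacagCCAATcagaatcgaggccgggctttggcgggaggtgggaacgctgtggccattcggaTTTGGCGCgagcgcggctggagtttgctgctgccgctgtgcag
CKS2 and PIF1 carry a CCAAT and a TTTGAA on one strand or the other, KPNA2 carries both more than once, and CCNB1 has CCAAT alone among these letters. E2F1 and CDC6 each carry TTTGGCGC and a CCAAT. The printed stretches of UBE2S and ARL6IP1 hold none of these letters, and the rest of the UBE2S window holds a CCAAT on the other strand. GENCODE places the start of ARL6IP1, KPNA2, CCNB1 and CDC6 upstream of the printed window, so that the windows of these genes lie within the GENCODE gene.

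Over the full windows, TTTGAA or TTCGAA occurred in 52.0% (44.4 to 59.5) of the 177 promoters found for the 220 higher genes. The share was 10.7% among 7379 promoters of genes tested and 16.6% among all 27305 promoters. Among the 11 promoters found for the 20 lower genes it was 9.09% (0.230 to 41.3), or 1 of 11. CCAAT occurred in 65.0% (57.5 to 72.0) of the promoters of higher genes and in 8 of 11 of lower genes, or 72.7% (39.0 to 94.0), and these intervals overlap. Its share was 37.1% among genes tested and 35.7% among all. Both kinds together occurred in 40.7% of the promoters of higher genes, against 4.81% of genes tested and 6.58% of all. TTTGGCGC occurred in 4 of 11 promoters of lower genes, or 36.4% (10.9 to 69.2), and in 1.69% of the promoters of higher genes, 1.23% of genes tested and 0.659% of all. Promoters that share ancestry or neighbours are not independent, and a match describes letters and not binding.

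The gene with the highest ratio was PIF1 (chromosome 15, 64815632 to 64825668 on GRCh38, minus strand), which codes for a DNA helicase. PIF1 had 487 counts in high-score and 5 in low-score cells, or 28.4 and 0.356 CPM, a log2 ratio of 6.32 (5.08 to 7.94). Its levels in the 4 groups from the lowest to the highest score were 0.356, 1.96, 10.6 and 28.4 CPM, so that it was close to absent in low-score cells and stepped up in each group. After thinning, PIF1 was counted in 23.1% and 0.251% of high-score and low-score cells, and without thinning in 32.5% and 0.546%. No cell type that lacks these transcripts was analysed here, so the share that free RNA can give was not measured.

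Among cyclins, kinases and phosphatases of mitosis, 13 of 18 genes were higher, with a median log2 ratio of 2.0. PLK1, the polo-like kinase that acts at centrosomes and kinetochores, had 3076 counts in high-score and 297 in low-score cells, or 179 and 21.2 CPM, a log2 ratio of 3.08 (2.91 to 3.26). Its levels over the 4 groups, lowest score first, were 21.2, 54.8, 89.2 and 179 CPM. CCNB1, the cyclin B1 that drives mitotic entry, stood at 203 and 39.3 CPM, a log2 ratio of 2.37 (2.24 to 2.5), and its partner CDK1 at 115 and 29.6 CPM, a log2 ratio of 1.95 (1.8 to 2.11). CKS2, a small subunit of CDK complexes, had the most counts of the list, 9738 and 2121 counts, with a log2 ratio of 1.91 (1.84 to 1.98). NEK2, a kinase of centrosome separation, had a log2 ratio of 2.94 (2.66 to 3.22), and GTSE1, a microtubule-associated protein, of 3.03 (2.84 to 3.22).

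Not every member of this list passed 2-fold. The kinases that hold CDK1 back, WEE1 and PKMYT1, were at 0.83 and 0.39, whereas the phosphatase CDC25C, which releases CDK1, was at 2.5 from 333 and 48 counts. CKS1B was at 0.99 (0.91 to 1.07), just below the limit. MASTL, the Greatwall kinase, was at -0.20 and was the only list member with a negative ratio. FBXO5, the inhibitor of the anaphase-promoting complex known as EMI1, was at 0.74.

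All 7 genes of the chromosomal passenger complex, its Haspin kinase and the shugoshins were higher, with a median of 1.81. INCENP, the scaffold of the complex, had 1633 counts in high-score and 206 in low-score cells and a log2 ratio of 2.7 (2.49 to 2.91). CDCA8, which codes for borealin, was at 2.37, and the kinase AURKB at 1.81. BIRC5, which codes for survivin, had the most counts (6746 and 2367 counts) and the lowest ratio, 1.22 (1.15 to 1.29). SGO2, which protects cohesin at centromeres, was at 2.98 and SGO1 at 1.72. With cells split at the median score, BIRC5 was at 0.75 and so below 2-fold. Within one complex the ratios thus ran from 1.22 to 2.7.

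Of 26 genes listed as kinesins and spindle assembly factors, 25 were higher, with a median of 2.12. The list also held ARL6IP1, which shapes the endoplasmic reticulum and is among the 25. FAM83D, which brings a casein kinase to the spindle, had 1546 counts in high-score and 120 in low-score cells and a log2 ratio of 3.4 (3.13 to 3.68). KIF20A, the kinesin of the central spindle, had 1192 and 102 counts in the same order and a log2 ratio of 3.26 (2.96 to 3.56). CENPE, the kinesin that carries chromosomes to the spindle equator, was at 2.98 (2.75 to 3.23), KIF14 at 2.9 (2.65 to 3.16) and ASPM, a spindle pole protein, at 2.6 (2.45 to 2.76). The lowest kinesins were KIF22 at 1.26 and KIF15 at 1.41. STMN1, which codes for the microtubule destabiliser stathmin, was the 1 member that did not pass, with 144 and 111 CPM and a log2 ratio of 0.37 (0.28 to 0.46). PSRC1, a spindle protein outside the lists, had the second highest ratio of all genes, 3.71 (3.37 to 4.07) from 1202 and 75 counts. GAS2L3, which links actin and microtubules, was at 2.99 (2.67 to 3.32).

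The kinetochore list was mixed, with a median of 0.83. Of 23 genes 11 were higher, among them CENPA, the centromeric histone H3 (1803 and 281 counts, log2 ratio 2.39), its chaperone HJURP (2.62), and NDC80 (2.28) and NUF2 (1.8), which bind microtubules. The inner kinetochore genes CENPH, CENPK, CENPM, CENPN, CENPU and CENPW lay between 0.13 and 0.61, and DSN1 was at -0.16. SKA2 was at 0.57 (0.48 to 0.66) while SKA1 and SKA3, subunits of the same complex, were at 1.36 and 1.09.

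Of the genes listed under cytokinesis, 13 of 13 were higher, with a median of 1.96, though the list was not confined to genes of that step. ECT2, which activates RhoA at the division site, was at 1.42, RACGAP1, a subunit of centralspindlin, at 1.96, and ANLN, which codes for anillin, at 1.72. PIF1, CDCA3 and CDCA2 had been listed here too, although PIF1 is a helicase and CDCA2 brings a phosphatase to chromosomes. CDCA3 had 1606 counts in high-score and 143 in low-score cells and a log2 ratio of 3.2 (2.95 to 3.46), and CDCA2 of 2.93 (2.76 to 3.12). ARHGAP11A, at 1.87, has a near-identical partial copy, ARHGAP11B, and the sources used here do not give how the authors' counting split reads between them.

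**Figure D2:**
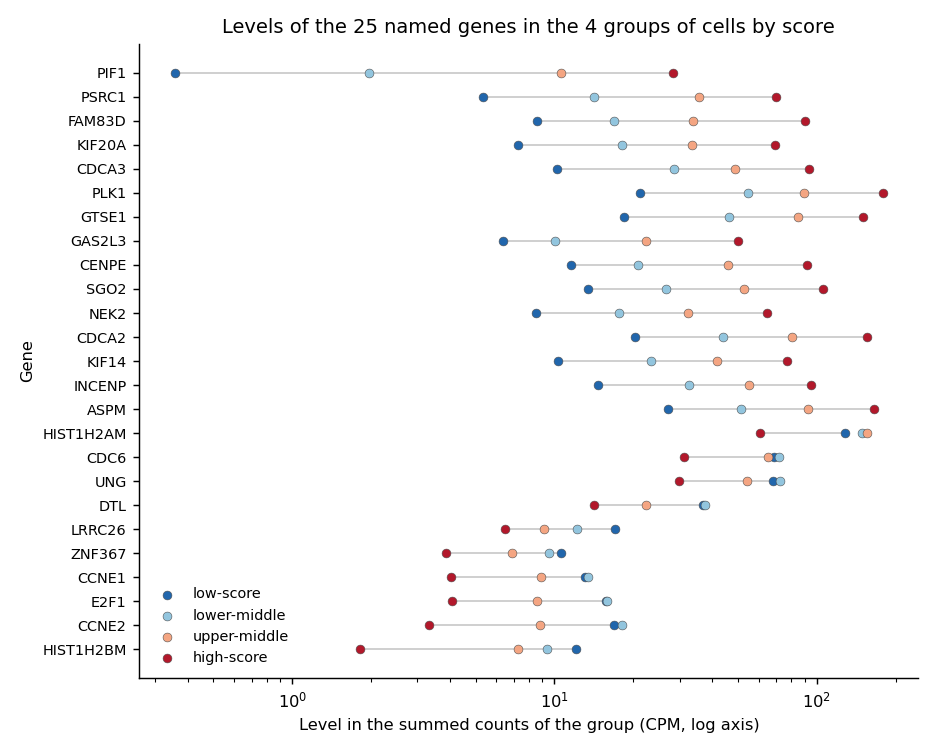
Level (CPM, log axis) of the 15 higher and 10 lower named genes in the summed counts of each of the 4 groups of cells, ordered by their log2 ratio. Each of the 15 higher genes steps up from low-score to high-score cells, whereas all 10 lower genes have their lowest level in high-score cells.

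The next lists held a smaller share of called genes. Of 20 genes of the spindle checkpoint and the anaphase-promoting complex, 5 were higher, with a median of 0.36. ESPL1, which codes for the protease separase, was at 1.74 (1.48 to 2.01), and the checkpoint gene BUB1B at 1.58 (1.38 to 1.78). UBE2S, which extends ubiquitin chains for the complex, was at 1.08 (1.02 to 1.14), its activator FZR1 at 1.06 (0.82 to 1.31) and the checkpoint gene MAD2L1 at 1.01 (0.90 to 1.13). MAD2L1 ended below 2-fold under 6 of 12 alternatives, with a lowest value of 0.59, UBE2S and FZR1 under 2, and ESPL1 under 1, with the split at the median (0.96). The 8 subunits with ANAPC symbols lay between 0.01 (ANAPC5) and 0.46 (ANAPC7), while CDC27, another subunit, was at 1.0 (0.89 to 1.1). PTTG1, which codes for securin, was at 0.76 (0.70 to 0.83).

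Among genes of condensin, cohesin and chromatin packing, 5 of 24 were higher, with a median of 0.60. HMGB2 had 10277 counts in high-score and 3409 in low-score cells and a log2 ratio of 1.3 (1.25 to 1.36), whereas its relative HMGB1, with 15326 and 10822 counts, was at 0.21 (0.18 to 0.25). The condensin I subunits NCAPG and NCAPH were at 1.59 (1.46 to 1.71) and 1.54 (1.38 to 1.72), and the shared subunit SMC4 at 1.08 (0.97 to 1.19). Another condensin I subunit of the list, NCAPD2, was at 0.79 and did not pass. The condensin II subunits NCAPD3, NCAPG2 and NCAPH2 lay between 0.14 and 0.52. H2AFX, the histone H2A variant phosphorylated at DNA breaks, was at 1.12 (1.03 to 1.21), and H2AFZ, the most abundant gene of the list, at 0.15 (0.12 to 0.17). Under 12 alternatives SMC4 was not past 2-fold in 3, H2AFX in 2, and HMGB2, NCAPG and NCAPH in 1 each. Cohesin subunits did not pass, with RAD21 at 0.86 and SMC3 at 0.37.

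The transcription factors of the programme themselves differed. FOXM1 had 1361 counts in high-score and 398 in low-score cells and a log2 ratio of 1.48 (1.32 to 1.65), the only 1 of 8 tested to pass. MYBL2, which codes for B-MYB, was at 0.28 (0.14 to 0.41), and over the groups its level was 53.5, 73.1, 73.3 and 64.9 CPM. The repressors E2F7 and E2F8 were at -0.04 and -0.10. Of 10 tubulin genes, TUBB4B alone passed, at 1.35 (1.29 to 1.41) from 8624 and 2764 counts, where 2.27% of all genes tested were higher. With the split at the median FOXM1 and TUBB4B were below 2-fold, at 0.84 and 0.81. TUBA1B, the most abundant alpha-tubulin gene here, was at 0.13 (0.08 to 0.17) and TUBB at 0.49 (0.45 to 0.54).

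The 5 genes outside the score whose counts followed it most closely across 3303 thinned cells were ARL6IP1 (Pearson r of 0.527), CKS2 (0.525), KPNA2 (0.474), CDCA2 (0.471) and ASPM (0.463), out of 11086 genes. These cells share 1 library, so the correlations are descriptions. ARL6IP1, which shapes the endoplasmic reticulum, stood at 299 and 53.8 CPM, a log2 ratio of 2.47 (2.36 to 2.59). KPNA2, an importin that carries cargo into the nucleus, stood at 207 and 44.4 CPM, a log2 ratio of 2.22 (2.1 to 2.35).

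The difference was also present cell by cell. After thinning to 10100 counts, 849 high-score and 798 low-score cells remained and 66 and 117 were left out as too shallow. The mitosis lists together had a median of 171 counts per cell (interquartile range 153 to 195) in high-score cells and 97 (79 to 112) in low-score cells. Lower-middle and upper-middle cells lay between, at 117 and 135. Much of this sum came from the list of condensin, cohesin and chromatin packing. Before thinning it gave 106935 of 299867 counts in high-score cells and 64739 of 129947 in low-score cells. PLK1 was counted in 73.9% and 16.7% of the thinned high-score and low-score cells, CCNB1 in 76.1% and 25.2% and CKS2 in 98.0% and 72.8%. Without thinning the shares were 86.4% and 22.3%, 85.9% and 32.0% and 98.1% and 80.7%. As the share from free RNA was not measured, a count in a low-score cell was not read as expression.

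**Figure D3:**
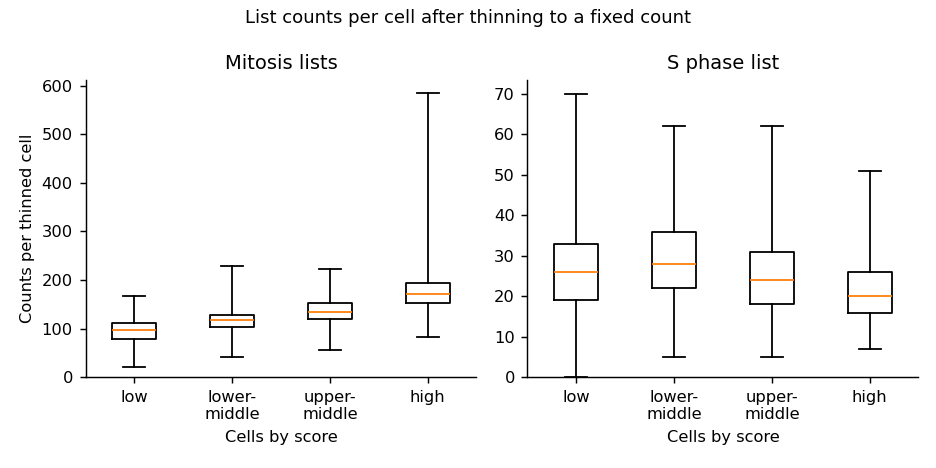
Counts of the mitosis lists (left) and of the S phase list (right) per cell after thinning to 10100 counts, in the 4 groups of cells. Boxes span the interquartile range with the median as a line, and whiskers reach the lowest and highest cell. Medians of the mitosis lists step from 97 to 171, while those of the S phase list are 26, 28, 24 and 20.

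Among the 20 lower genes, the most negative ratios after that of the histone gene HIST1H2BM were those of 3 genes of S phase entry, CCNE2, E2F1 and CCNE1. CCNE2, 1 of the cyclins E that drive S phase entry, had 57 counts in high-score and 236 in low-score cells, or 3.32 and 16.8 CPM, a log2 ratio of -2.34 (-2.78 to -1.92). E2F1, the transcription factor of S phase genes (chromosome 20, 33675683 to 33686404, minus strand), had 70 and 221 counts in the same order, a log2 ratio of -1.95 (-2.36 to -1.56). CCNE1 was at -1.71 (-2.13 to -1.3). The licensing factor CDC6 (chromosome 17, 40287633 to 40304657, plus strand) was at -1.15 (-1.31 to -1.0), and DTL, which targets the licensing factor CDT1 for destruction, at -1.39 (-1.61 to -1.16). UNG, the uracil-DNA glycosylase, was at -1.19 (-1.35 to -1.04), and the transcription factor ZNF367 at -1.47 (-1.91 to -1.04). With the split at the median, UNG (-0.76), ZNF367 (-0.92) and LRRC26 (-0.90) were not past 2-fold. MSH6, a mismatch repair subunit, was at -1.01 (-1.18 to -0.85), and it was not past 2-fold under 4 of 12 alternatives. LRRC26, which codes for a channel subunit, was at -1.4 (-1.74 to -1.07) from 111 and 239 counts. The lower genes outside the lists and the histones also held FBXL20, PAQR4, RP1-34B20.21 and C1orf213, between -1.14 and -1.0 and close to the limit, and PAQR4 was not past it under 5 of 12 alternatives. CCNE2 was counted in 2.94% and 14.4% of thinned high-score and low-score cells and E2F1 in 3.77% and 13.3%, and without thinning in 4.92% and 17.4% and 6.34% and 19.0%.

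CCNE2, E2F1, CCNE1 and DTL were past 2-fold under all 12 alternatives run for them, whereas CDC6 was not under 4 of 12. In the list of G1 and S entry genes, 4 of 17 were lower (CCNE1, CCNE2, E2F1 and E2F2) and 2 were higher. Of all genes tested 0.206% were lower and 2.27% higher. The higher members were CDKN2C and CDKN2D, which code for inhibitors of CDK4 and CDK6. CDKN2C had 371 counts in high-score and 105 in low-score cells and a log2 ratio of 1.53 (1.21 to 1.86), and CDKN2D had 476 and 128 counts and a log2 ratio of 1.6 (1.32 to 1.9). The cyclin gene CCND1 was at 0.40 (0.34 to 0.46) and its kinase CDK4 at -0.05 (-0.13 to 0.02).

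The S phase list as a whole was slightly lower in high-score cells and did not order with the score. Of 41 genes 2 were lower and none was higher, with a median of -0.27. Of all genes tested 0.206% were lower and 2.27% higher, so the lack of higher genes does not set the list apart. Summed, the list stood at 2545, 2840, 2486 and 2107 CPM in the 4 groups from lowest to highest score, and 34 of its 41 genes had their highest level in lower-middle cells, as had 1614 of all 9704 genes. Over 10 groups of cells it was 2055 CPM in the lowest, 2882 in the fourth and 2052 in the highest, so that both ends of the score were low. UHRF1, which guides DNA methylation maintenance, was at -0.82 (-0.92 to -0.72), and SLBP, which binds histone mRNA, at -0.54 (-0.65 to -0.43). The helicase subunit MCM7 was at 0.02 (-0.07 to 0.12) and MCM3 at -0.38 (-0.49 to -0.27). Low-score cells were not alike, since the lowest of the 10 groups had less of the S phase list than the next, at 2819 CPM. None of 12 nucleotide synthesis genes passed, with TYMS at 0.18 (0.12 to 0.24), and beside the 2.27% and 0.206% of all genes this count does not set the list apart.

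Histone genes followed a course that the comparison of the 2 ends does not show. Replication-dependent histone genes, with symbols that begin with HIST, supply histones for newly copied DNA, and most of their transcripts lack a poly(A) tail. The 29 such genes tested, a group chosen after values were seen, summed to 3046, 4491, 4294 and 2133 CPM over the 4 groups. Over 10 groups of cells their level was 1841 CPM in the lowest, 4621 in the fifth and 1255 in the highest. The highest level fell in lower-middle cells for 18 of the 29 genes and in upper-middle cells for 9, against 1614 and 1909 of all 9704 genes tested. HIST1H4C, which held most of these counts, stood at 1839.8, 2706, 2549 and 1303 CPM. HIST1H1E, a linker histone gene, stood at 214, 361, 368 and 194 CPM.

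Of 9866 genes with enough counts, 22 (0.223%) were at least 1.5-fold higher in a middle group than in both end groups, and 17 of the 22 were named HIST. The largest such ratio was that of HIST2H2AC, at 32.6, 50.6, 72.9 and 32.8 CPM, which is 2.22-fold. The other 5 were S100A14, RP1-71L16.2, ANKRD9, TBXA2R and CCND3, the last at 24.2, 36.4, 28.9 and 22.1 CPM. In the reverse direction 1 gene was lower in both middle groups by that ratio. In high-score against low-score cells, 6 of the 29 HIST genes were lower, where 0.206% of all genes tested were lower. HIST1H2BM was at -2.75 (-3.35 to -2.19) from 31 and 170 counts, of which 1 low-score cell gave 29. HIST1H2AM was at -1.07 (-1.18 to -0.96), but 1 low-score cell gave 291 of its 1800 counts, and without the cell with most counts in each group it was at -0.87 (-0.98 to -0.75). HIST1H4B likewise went from -1.18 to -0.98 (-1.27 to -0.68). Over 12 alternatives HIST1H2AM was not past 2-fold under 7, with a value of -0.38 closest to 0, HIST1H2BJ and HIST1H4B under 5 each, HIST1H3J under 4 and HIST2H2BE under 2. HIST1H2BM was past it under all 12. Histone genes are near copies of each other, and the sources used here do not give how reads shared between them were counted.

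**Figure D4:**
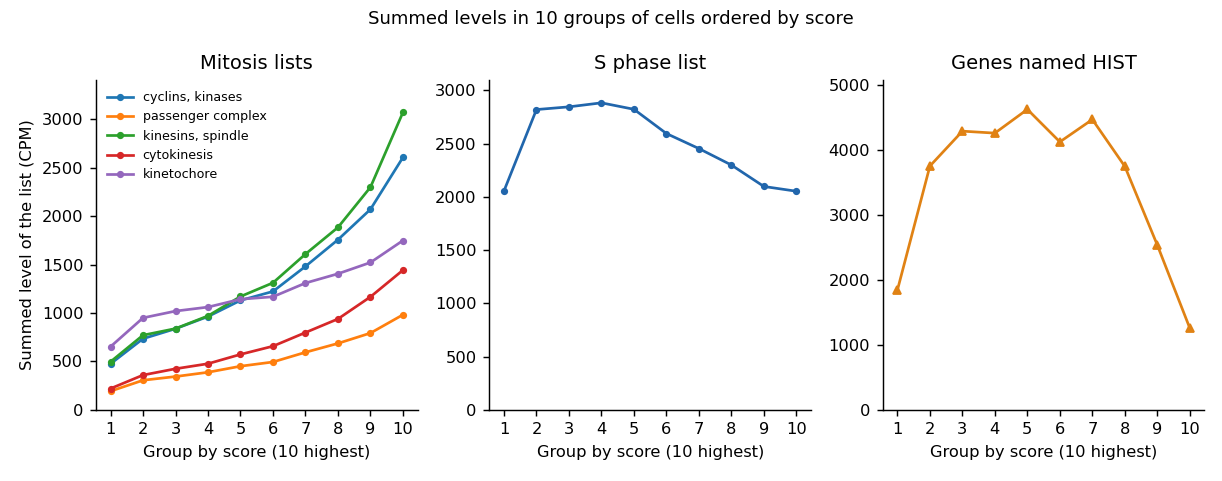
Summed level (CPM) of 5 mitosis lists, of the S phase list and of the 29 genes named HIST in 10 groups of cells ordered by score. The mitosis lists climb from the first to the last group, the S phase list is highest in the fourth at 2882, and the HIST genes are highest in the fifth at 4621 and lowest in the last at 1255.

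None of the 10 mitochondrially encoded genes, 16 glycolysis genes, 14 immediate early genes or 10 genes of the ATF4 response passed, where 2.27% of all genes were higher and 0.206% lower, so that these counts do not set the lists apart. Of 13 mitochondrial genes listed, 10 had a name of their own, and they summed to 24206 and 24107 CPM in high-score and low-score cells. All names beginning with MT- held 16.8% and 18.4% of the counts, so most mitochondrial counts lay outside these 10 genes. All 32 ribosomal protein genes had negative log2 ratios, between -0.28 and -0.08, with a median of -0.17, and 31 of them were highest in low-score cells. Ribosomal protein genes held 20.6% and 23.1% of the counts of high-score and low-score cells. With these and mitochondrial genes left out of the denominator, the median over all genes went from 0.14 to 0.05 and the numbers of higher and lower genes from 220 and 20 to 178 and 27.

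Among 9 heat shock chaperone genes tested, 2 were higher, where 2.27% of all genes tested were higher. DNAJB1, a co-chaperone of HSP70, had 4792 counts in high-score and 1410 in low-score cells and a log2 ratio of 1.47 (1.39 to 1.56), and its levels over the 4 groups were 100.4, 126, 167 and 279 CPM. HSPA1B, an HSP70 gene, had 2414 and 674 counts and a log2 ratio of 1.55 (1.43 to 1.68). HSPA1A, its near-identical copy, had 72 and 19 counts and fell short of the count minimum, so the 2 genes cannot be told apart with certainty. HSP90AA1 was at 0.26 (0.23 to 0.29) and HSPD1 at 0.03 (-0.00 to 0.07). DNAJB1 and HSPA1B were just below 2-fold (log2 ratios of 0.99 and 0.98) when all cells above the median score were compared with all below it.

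Of the 220 higher genes, 140 were outside the mitosis lists, and a few were singled out after their values were seen. DNMT3B, a DNA methyltransferase that writes new methylation and a target of DAC, had 307 counts in high-score and 52 in low-score cells, a log2 ratio of 2.27 (1.84 to 2.72). The maintenance methyltransferase DNMT1 had 3681 and 2547 counts and a log2 ratio of 0.24 (0.17 to 0.31). UBALD2 was at 2.72 (2.43 to 3.03), and NEURL1B, a ubiquitin ligase gene, at 2.67 (2.23 to 3.15). MXD3, a MAX partner, was at 2.27 (2.0 to 2.54), and KMT5A, the methyltransferase of histone H4 lysine 20, at 1.36 (1.14 to 1.58), or 0.89 with the split at the median.

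Transposable elements (TE), which the authors counted in a table of their own, differed little between the groups as a sum. TE counts made up 0.302% (0.299 to 0.304) of the counts in high-score cells and 0.316% (0.314 to 0.319) in low-score cells, a log2 ratio of -0.07 (-0.09 to -0.05). This sign did not hold under every alternative, as the ratio was 0.02 with a score from the first 5 genes only. Names beginning with AluS stood at 770.4 and 1056 CPM, a log2 ratio of -0.45 (-0.49 to -0.42). Names beginning with L1 were at 503 and 493 CPM, or 0.03 (-0.02 to 0.08). LTR12 names, the repeats of an endogenous retrovirus, stood at 562 and 440.0 CPM, or 0.35 (0.31 to 0.40), and LTR7 names at 114 and 142 CPM, or -0.32 (-0.41 to -0.23). The LTR12D feature of locus 1701101 held 3726 of 9647 LTR12 counts in high-score cells and 2366 of 6178 in low-score cells. Without it the LTR12D family was at -0.51 (-0.91 to -0.12). LTR12C without its feature with most counts was at 0.34 (0.27 to 0.41). The LTR7 features of loci 5293703 and 168814 held 861 and 751 of 1959 LTR7 counts in high-score cells, and 838 and 817 of 1996 in low-score cells. Over the 4 groups, lowest score first, AluS names stood at 1056, 1121, 1134 and 770.4 CPM. LTR12 names stood at 440.0, 526, 600 and 562 CPM in the same order. Neither set ordered with the score, whereas LTR7 names stepped down, at 142, 125, 116 and 114 CPM.

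Of 69 TE families with enough counts 1 (1.45%) was at least 2-fold higher and 0 were at least 2-fold lower. The higher family was LTR10A, with 124 and 26 counts, a log2 ratio of 1.96 (1.34 to 2.63). The feature of locus 5056564 held 93 and 19 of them, and without it the ratio was 1.86 (0.65 to 3.28) from few counts. THE1-int was at 0.94 and HERVIP10FH at 0.86, but without their feature with most counts THE1-int was at 0.07 (-1.02 to 1.19) and HERVIP10FH at 0.54 (0.04 to 1.05). The lowest families were AluSx4 at -0.80, AluYm1 at -0.79 and AluSg4 at -0.66. Without the feature with most counts in each, AluSx4 was at -0.70 (-0.88 to -0.51), AluYm1 at -0.68 (-1.06 to -0.31) and AluSg4 at -0.39 (-0.62 to -0.16). That feature of AluSx4 had 0 counts in high-score and 41 in low-score cells. LTR12C had 5654 and 3570 counts, a log2 ratio of 0.37 (0.31 to 0.43), and L1HS_5end was at -0.17 (-0.43 to 0.10). A family named AluY alone had no listed count. Of 45 TE features with enough counts, some of which share a locus number, that of THE1-int at locus 4052886 was higher (146 and 56 counts, 2.22% of the features) and that of AluSg4 at locus 5229827 was lower (137 and 241 counts, again 2.22%). The table gives no coordinates for these numbers.

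**Figure D5:**
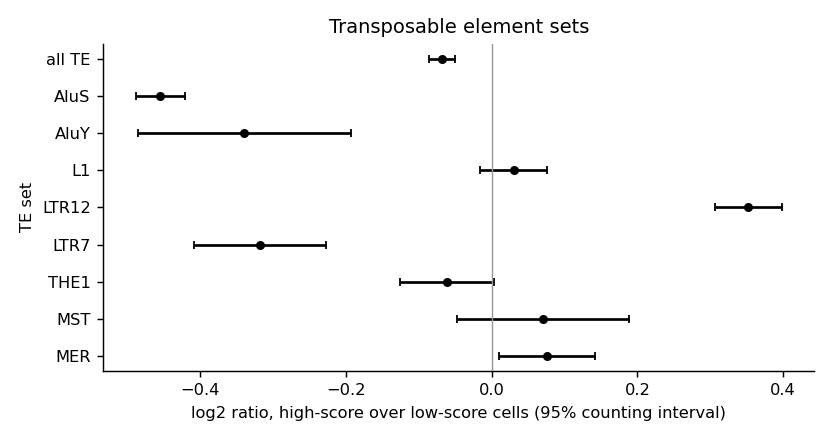
log2 ratio of high-score over low-score cells for all TE counts and for 8 sets of TE names, with exact 95% intervals for counting error. AluS lies lowest at -0.45, LTR12 highest at 0.35, and the sum of all TE near 0 at -0.07.

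The same score and groups were computed in the other libraries, each from its own cells, to see where the higher and lower genes lay there. Of the 220 higher genes, 207 had enough counts in H1299 DMSO, and 169 were higher and 0 lower there, where 3.19% of all genes were higher. In HCT116 DAC+SB 175 were tested, of which 117 were higher and 0 lower, where 3.81% of all genes were higher. In H1299 DAC+SB 170 of 208 were higher and 1 was lower, where 8.1% of all genes were higher. PIF1 had 523 and 20 counts in H1299 DMSO, a log2 ratio of 4.48 (3.83 to 5.20). Of the 20 lower genes, 12 were tested in H1299 DMSO and 2 were lower there, where 1.11% of all genes were lower. In H1299 DAC+SB 5 of 12 were higher and 1 lower, where 8.1% of all genes were higher and 1.62% lower. In HCT116 DAC+SB 3 of 10 were higher and 0 lower, where 3.81% of all genes were higher and 0.574% lower. These libraries differ in line, treatment and depth, and with 1 library each the differences between them were not tested.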

How the data were processed

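The deposited values are counts in whole numbers, listed by the authors per cell for gene features and for TE loci. Per the submitters' processing notes, CASAVA, STAR, GRCh38 and hg38 were used, but the sources used here give neither a version nor a role for them, nor whether a count is a unique molecule. Numbered gene features were listed from 10 counts, and names that join several genes (17.3% of gene counts) were left out of gene ratios. Each cell's name gave its library. Counts were summed over the cells of a group, without the 10 score genes, and divided by the sum of all gene and TE counts, also without the score genes. A gene was called at a ratio of at least 2, or at most 0.5, with a minimum of 100 counts in the group where it was higher, and intervals are exact conditional binomial intervals (95%) that cover counting error only. Cells of 1 library are not replicates, so no p-value was computed.

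Named genes are the 15 higher and 10 lower called genes whose interval lies farthest from 0, and up to 4 genes of each list with most counts, plus all called members where 5 or fewer were called. Other list members given as a range, a contrast or a subunit, and DNMT3B, UBALD2, NEURL1B, MXD3, KMT5A and MSH6, were chosen after their values were seen. The members and lists were chosen with earlier results of these data known. No doublet caller was run. In one alternative the deepest 5% of cells were dropped. Others changed the score, the groups, the count minimum, the ratio and the denominator. Leaving out the cell with most counts of a gene in each group was an alternative chosen after seeing the data. Gene positions came from the GENCODE annotation, and promoters from RefSeq, of which 8 are printed: those of the 5 higher named genes of the mitosis lists that have most counts and a promoter found, and 3 more. The ratio scripts were tested on simulated data. Python 3.11.15, numpy 2.4.6, scipy 1.17.1, pandas 2.3.3 and matplotlib 3.10.9 were used.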

Additional observations from a re-analysis of the deposited data

Results flagged for a closer look

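Among the genes and TE names set side by side over the libraries, 12 had a log2 ratio of high-score over low-score cells that lay below 0 in both DMSO libraries and above 0 in both DAC+SB libraries, with every counting interval clear of 0. The names set side by side were the named genes and a few TE names, many of them picked for their values in HCT116 DMSO. The share of all genes with this sign pattern was not computed, so the count of 12 does not tell whether the pattern is common. Values are given in the order HCT116 DMSO, H1299 DMSO, HCT116 DAC+SB and H1299 DAC+SB, and with 1 library per group the difference was not tested. Each library was ordered by its own score. Only CDC6, UHRF1, MCM3, SLBP, HIST1H4C, HIST1H1E and HIST1H2BJ had the minimum of 100 counts in all 4 libraries. Of the S phase entry genes, CCNE2 was at -2.34, -1.11, 0.80 and 0.88, E2F1 at -1.95, -0.99, 1.64 and 2.84, and ZNF367 at -1.47, -0.35, 2.11 and 2.5. In HCT116 DAC+SB, E2F1 rested on 53 and 16 counts and ZNF367 on 23 and 5, and in H1299 DAC+SB CCNE2 rested on 93 and 43 and ZNF367 on 73 and 11. CDC6 was at -1.15, -0.70, 1.78 and 3.34, and UHRF1 at -0.82, -0.25, 1.64 and 2.23. CCNE1 and UNG did not show the pattern: CCNE1 was at -0.23 and -0.30 in the DAC+SB libraries, and UNG at -0.40 (-0.77 to -0.04) in H1299 DAC+SB. The replicative helicase gene MCM3 was at -0.38, -0.37, 0.99 and 1.2, and SLBP at -0.54, -0.39, 0.64 and 0.94.

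The other 5 of the 12 are histone genes, and they share this pattern because they were picked by it. In HCT116 DMSO all 5 had their highest level in a middle group, so the ratio of the ends shows only part of their course. The middle groups of the other libraries are not given here. HIST1H4C was at -0.50, -0.48, 1.44 and 2.52, HIST1H1E at -0.15, -0.67, 1.46 and 1.18, and HIST1H2AM at -1.07, -1.82, 0.85 and 0.71. HIST1H2BJ was at -1.0, -0.24, 0.86 and 2.56, and HIST1H4B at -1.18, -1.61, 1.02 and 0.99. HIST1H2AM rested on 7 and 21 counts in H1299 DMSO, and HIST1H4B on 37 and 96 there and on 49 and 21 in H1299 DAC+SB. Some other HIST genes did not show it: HIST2H2BE was at -0.05 in HCT116 DAC+SB and -1.12 (-1.46 to -0.78) in H1299 DAC+SB, and HIST1H3J at 0.06 (-0.63 to 0.76) in HCT116 DAC+SB.

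LTR12C differed in sign between the lines instead, at 0.37 (DMSO) and 0.02 (DAC+SB) in HCT116 against -0.53 and -0.71 in H1299, and this difference was not tested. The value of 0.02 is a very small difference. In HCT116 DMSO LTR12C stood at 254, 305, 360 and 329 CPM over the 4 groups, lowest score first, and did not order with the score.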

How the results depend on the processing

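The count of higher genes (220) was 121 when cells above and below the median score were compared, 4956 with a minimum of 1 count, 380 with a minimum of 30, 732 at a ratio of 1.5 and 49 at a ratio of 4. The count of lower genes (20) was 6, 3477, 41, 95 and 2 under the same alternatives, 11 with a score from the first 5 genes and 11 when the end groups of 10 were compared. Of the 220 and 20 genes, the end groups of 10 shared 178 and 3. The median of the mitosis lists (1.24) was 0.77 with the split at the median and 1.92 with the end groups of 10, and the difference in mitochondrial share (-0.70 percentage points) was -1.6 with the latter, -1.23 with the last 5 score genes, -0.44 (-1.04 to 0.18) with the first 5 and -0.39 (-0.78 to 0.05) with the split at the median. The log2 ratio of counts per cell (0.30) was 0.20 with the split at the median and 0.47 with the end groups of 10, and -0.0027 in groups matched on depth, which are built to remove it. The TE share (-0.07) was -0.17 without mitochondrial and ribosomal protein genes in the denominator, -0.010 with the split at the median, -0.040 as a mean over cells, -0.030 with a thinned score, 0.021 with the first 5 genes, -0.087 with the last 5, -0.029 with the end groups of 10 and -0.095 without cells above 25% mitochondrial counts, and the cause was not tested. Of the other values, all of named genes, 1311 moved by less than their counting interval, 477 moved by more and 0 reversed. A change of sign was called a reversal only for genes past 2-fold, so any sign change of the remaining genes is among the 1311 and 477. No paired analysis was possible because the labels carry no replicate numbers and each group is 1 library. Depth limits genes under 100 counts, and intervals do not cover the spread between cultures.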

Other observations

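Gene features with a number after the name, whose meaning the sources used here do not give, sometimes differed from the rest of their gene. Of 6489 such features with enough counts, 26 (0.401%) had a log2 ratio of high-score over low-score cells at least 1 away from that of the rest of the gene, with counting intervals apart. FAM110A, which codes for a centrosome and spindle protein, held the widest gap. Feature 2 of FAM110A had 108 counts in high-score and 5 in low-score cells, a log2 ratio of 4.14 (2.88 to 5.79), while the rest of the gene had 354 and 157 counts, a log2 ratio of 0.88 (0.61 to 1.16). The feature thus made up 23.4% of FAM110A counts in high-score cells and 3.09% in low-score cells. Feature 1 of MXD3 was at 3.01 and the rest of that gene at 1.72, and feature 1 of KMT5A at 2.31 and the rest at 1.08.

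Other genes had the opposite arrangement. Feature 1 of UHRF1 was at -1.26 (-1.39 to -1.13) and the rest of the gene at -0.20 (-0.35 to -0.05), so that the feature held 49.4% of UHRF1 counts in high-score cells and 67.0% in low-score cells. Feature 1 of AKAP12, a scaffold of protein kinase A, was at -1.04 and the rest at 0.03. Feature 1 of GEM was at 0.89 and the rest at 2.11, and feature 1 of BAG3, a co-chaperone, at -0.02 and the rest at 1.01. In contrast, both features of PLK1 (3.02 and 3.11), of CCNB1 (2.29 and 2.45) and of KIF20A (3.3 and 3.21) lay close together.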
